A study of Mus musculus with 16 samples.

Results

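The granule, antimicrobial and protease genes of neutrophils are described here, a list of 43 gene symbols chosen by function. Of these, 42 were found under the listed symbol in a table of 23337 symbols, and Chil3 stood there under its older symbol Chi3l3, so it is given beside the others without entering the counts. After a filter on low counts 37 of the 42 genes were tested, among 9213 genes tested in all. Blood neutrophils of 8 week old C57/Bl6 mice were purified by magnetic bead negative selection and measured by bulk RNA-Seq in 16 libraries. Mice were LTβRΔN (Ltbrfl/fl x Mrp8-Cre) or Cre- littermate controls (Ctrl), so both genotypes carry the floxed Ltbr allele, and the Mrp8-Cre transgene is driven by the promoter of S100A8, whose mouse gene is on the list. The groups were 3 unstimulated Ctrl libraries (71 to 73), 4 stimulated Ctrl libraries (80 to 83), 4 unstimulated LTβRΔN libraries (67 to 70) and 5 stimulated LTβRΔN libraries (75 to 79). The treatment notes describe 2 h of exposure to TNF and GM-CSF (both 100 ng/ml) together with IL-6 (50 ng/ml), to which LIGHT, a ligand of LTβR, was added at 500 ng/ml for some cells. The series' design text describes culture with or without cytokines, whereas the study describes its RNA-Seq as cytokine-treated cells with LIGHT added or not. No source used here gives the agents library by library, so the groups are called stimulated and unstimulated only, as labelled. The labels do not say that libraries of a group came from separate mice, and p-values measure only the spread between libraries.

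Neutrophils carry their antimicrobial proteins in granules that are filled one class after the other while the cell matures in the bone marrow. Azurophil granules come first and hold myeloperoxidase and serine proteases, specific granules hold lactoferrin and cathelicidin, and gelatinase granules come last and hold matrix metalloproteases. Transcripts of the early granule proteins are mostly gone when the cell enters the blood, while those of S100 proteins and several protease inhibitors are abundant in mature cells. In bulk RNA, fewer cells of a type and less RNA per cell cannot be told apart.

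Library totals ranged from 1094335 to 11932653 counts, and the 3 shallowest libraries were LTβRΔN libraries 68, 77 and 75 (up to 1697583). Ltbr lay at 84.6 to 154 CPM (counts scaled to a common library size with TMM factors) in Ctrl and at 0.704 to 18.1 CPM in LTβRΔN libraries. Cish, Socs3 and Nfkbia, targets of cytokine and TNF signalling, rose with stimulation by 3.59 to 8.60 on the log2 scale. The neutrophil markers Cxcr2, Csf3r and Itgam were detected in all 16 libraries. Of the markers of other cells, those of monocytes or macrophages summed to 429 to 638 CPM, with Csf1r at 223 to 438 CPM and Ly6c2 at 91.98 to 157.7 CPM. They include Ctss, which is also on the list. Others of these markers were at or near 0, with Ccr2 at up to 1.39, Cx3cr1 at up to 0.17, F13a1 at up to 2.83 and Ms4a6c at up to 1.6 CPM. Markers of T or NK cells summed to 4.3 to 15.65 CPM, with Cd3d detected in all 16 libraries (2.11 to 14.9 CPM) and Cd3e at 0 in all. Markers of eosinophils summed to 0.774 to 11.3 CPM, with Ccr3 at up to 10.97 CPM and Epx and Prg2 at 0 in all, and markers of B cells to 0 to 1.6 CPM, with Ms4a1 at 0 in all. Platelet markers summed to 206 CPM in library 82 and 55.4 CPM in library 80, against 6.23 to 24.2 CPM in the other 14.

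The listed genes took 6.83% to 10.9% of the counts of a library. Per length of exon, S100a8 ranked first of 9082 tested genes with a mean level of 44530 CPM per kb over the 16 libraries and S100a9 second with 31380 CPM per kb. These genes encode the subunits of calprotectin, a metal-binding antimicrobial complex of the neutrophil cytosol. Among the listed genes they were followed by Retnlg, a resistin-like secreted protein (6592 CPM per kb), and S100a11, another calcium-binding S100 protein (6289 CPM per kb). The ranges of these neighbours over libraries overlapped (4185 to 8702 and 4257 to 7748 CPM per kb), as did those of the next pair, Lyz2 (lysozyme, 2908 to 4902) and Slpi (an inhibitor of serine proteases, 2958 to 4533 CPM per kb). Among the listed genes that were tested the lowest were Orm1, an acute phase glycoprotein (1.38 CPM per kb), Prtn3 (proteinase 3, 1.9) and Serpinb1a, an inhibitor of neutrophil elastase (3.45 CPM per kb).

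**Figure D1:**
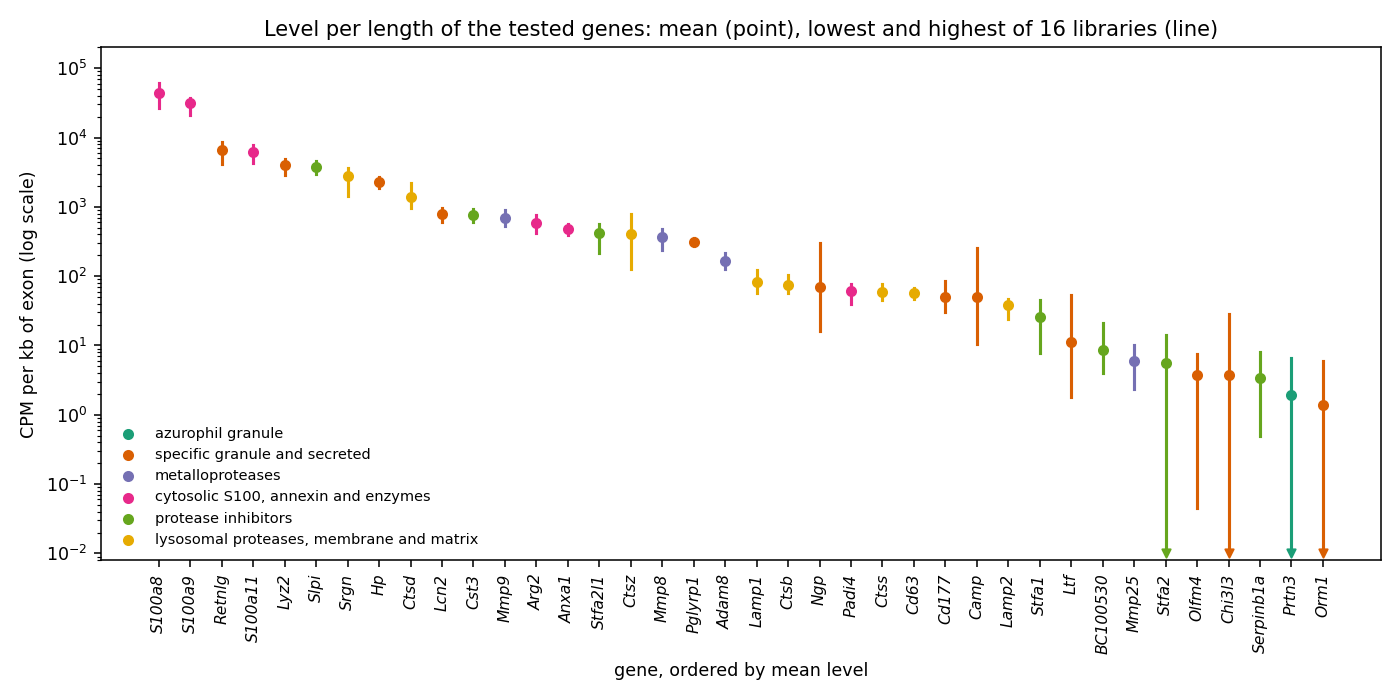
Level of each tested gene and of Chi3l3 in CPM per kb of exon on a log axis, coloured by role. Points are means over the 16 libraries and lines run from the lowest to the highest library, with an arrow where a library was at 0. S100a8 and S100a9 lie above the other genes, and Camp, Ltf and Ngp have wide ranges.

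The transcripts of azurophil granules were at or near 0. Mpo (myeloperoxidase), Elane (neutrophil elastase) and Ctsg (cathepsin G) had 0 counts in all 16 libraries. Over 98029304 counts this allows a level of up to 0.0306 CPM if it is the same in all libraries. In a single library a count of 0 allows up to 0.251 CPM (library 71, the deepest) to 2.74 CPM (library 68, the shallowest). A share of 44.9% of all symbols was at 0 in every library. Prtn3 held 1.44, 2.04 and 0.701 CPM in unstimulated and 5.27, 1.9, 11.6 and 3.62 CPM in stimulated Ctrl libraries. In LTβRΔN libraries it held 0.618, 2.4, 7.01 and 6.38 CPM without and 1.25, 0, 4.93, 3.59 and 0 CPM with stimulation. Group means were 1.39 ± 0.67 (SD, n = 3), 5.59 ± 4.23 (n = 4), 4.1 ± 3.09 (n = 4) and 1.95 ± 2.22 CPM (n = 5), and stimulated and unstimulated libraries overlapped in both genotypes. Outside the azurophil class, Fcnb, a secreted ficolin, had 16 counts, all in library 76, and Cst7, an inhibitor of cysteine proteases, had 1 count, in library 80, so neither was tested.

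Stimulated libraries were compared with unstimulated ones within each genotype to ask which granule genes differ between the labelled treatments. In Ctrl neutrophils 2 of the 37 genes rose and 0 fell at an adjusted p under 0.05 (edgeR's quasi-likelihood test with Benjamini-Hochberg adjustment), where 2.82% of all tested genes rose and 0.662% fell (3.48% in all). In LTβRΔN neutrophils 3 rose and 1 fell, where 2.98% of all genes rose and 0.749% fell (3.73% in all). Ctsz and Arg2 rose in both genotypes, and in LTβRΔN neutrophils Srgn rose and Ctsd fell. The median log2 fold change of the 37 genes was 0.06 in Ctrl and -0.08 in LTβRΔN neutrophils, beside -0.02 and -0.03 over all tested genes. In either genotype the 95% interval of the change lay inside 2-fold for 25 of the 37 genes.

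Ctsz (chr2:174427493-174439039, minus strand, GRCm38) encodes the lysosomal cysteine protease cathepsin Z and had the largest change of the genes that passed. It held 251, 218 and 219 CPM in unstimulated and 794, 968, 951 and 766 CPM in stimulated Ctrl libraries. LTβRΔN libraries held 181, 287, 199 and 248 CPM without and 663, 1099, 1121, 802 and 682 CPM with stimulation. Every stimulated library lay above every unstimulated one in both genotypes. The log2 fold change was 1.92 in Ctrl (SE 0.19, 3.79-fold, edgeR adjusted p = 2.0e-07) and 1.94 in LTβRΔN neutrophils (SE 0.17, 3.84-fold, adjusted p = 2.2e-08). The change differed between the genotypes by 0.02 on the log2 scale, with a 95% interval of -0.49 to 0.52.

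Arg2 (chr12:79130777-79156301, plus strand), the mitochondrial arginase, held 644, 596 and 651 CPM in unstimulated and 1066, 976, 917 and 853 CPM in stimulated Ctrl libraries. LTβRΔN libraries held 667, 613, 619.7 and 783 CPM without and 916, 1102, 1059, 1080 and 838 CPM with stimulation, and again the groups did not overlap in either genotype. The rise was 0.60 on the log2 scale in Ctrl (SE 0.13, edgeR adjusted p = 0.00522) and 0.57 in LTβRΔN neutrophils (SE 0.11, adjusted p = 0.00192). Without library 72 it was 0.55 in Ctrl and did not pass (edgeR adjusted p = 0.0597).

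Srgn (chr10:62493833-62527451, minus strand) encodes serglycin, the proteoglycan core on which granule proteins are packed. It held 5350, 4333 and 5649 CPM in unstimulated and 7613, 7017, 7046 and 6640 CPM in stimulated Ctrl libraries. LTβRΔN libraries held 5022, 3183, 5403 and 6044 CPM without and 6392, 6570, 8028, 7435 and 6428 CPM with stimulation. No stimulated library was as low as an unstimulated one of its genotype. The rise passed in LTβRΔN neutrophils (log2 0.50, SE 0.14, edgeR adjusted p = 0.0372) and missed in Ctrl (log2 0.47, SE 0.16, adjusted p = 0.13), and the difference between the genotypes was 0.03 (95% interval -0.39 to 0.46). On leaving out any one of libraries 67, 68, 69, 77 and 78 the call was lost (edgeR adjusted p = 0.0556 to 0.112), and without library 68, the lowest, the rise was 0.34.

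Ctsd (chr7:142375911-142388038, minus strand), the lysosomal aspartic protease cathepsin D, moved the other way. It held 4798, 3374 and 3350 CPM in unstimulated and 2868, 2293, 3368 and 2610 CPM in stimulated Ctrl libraries, with overlap through library 82. LTβRΔN libraries held 3882, 5234, 3721 and 3856 CPM without and 2635, 2622, 2758, 2817 and 2747 CPM with stimulation, without overlap. In LTβRΔN neutrophils the log2 fold change was -0.62 (SE 0.13, edgeR adjusted p = 0.00309). In Ctrl it was -0.46 (SE 0.14, adjusted p = 0.0948), and it passed there without library 82 (adjusted p = 0.0309). The LTβRΔN call was lost without the 3 shallowest libraries (log2 -0.48, edgeR adjusted p = 0.1005).

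**Figure D2:**
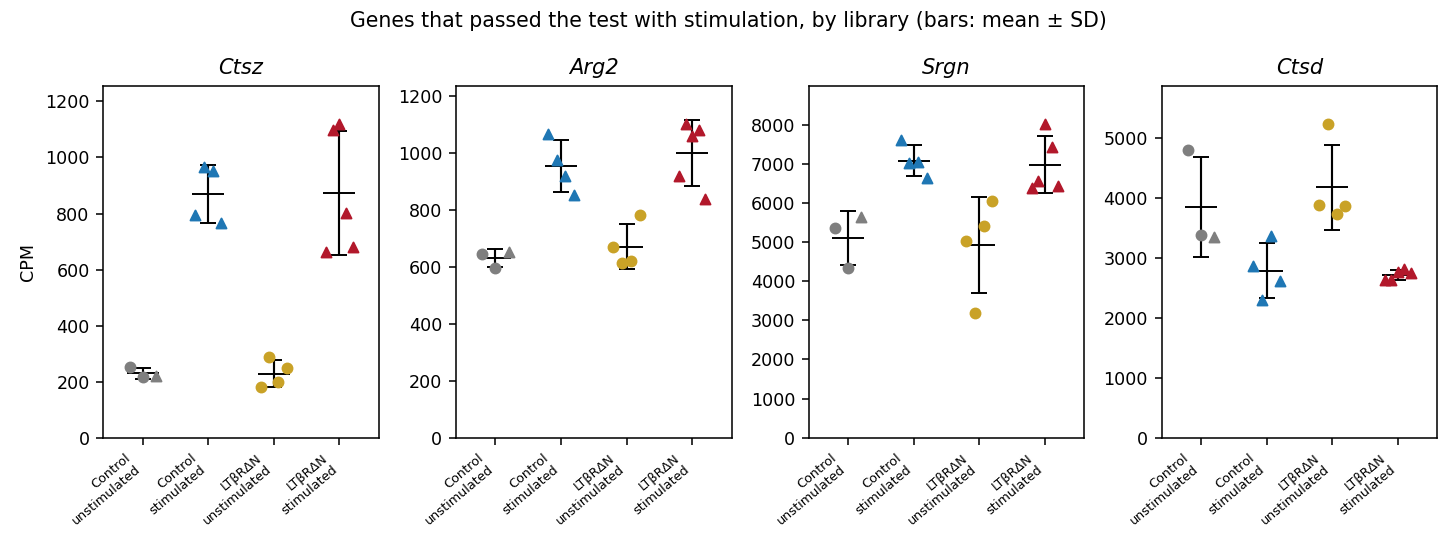
CPM of Ctsz, Arg2, Srgn and Ctsd in each of the 16 libraries, by group, with bars for the mean and SD. Circles are libraries of index S520 and triangles those of index S521. Ctsz lies at 663 to 1121 CPM in the stimulated and at 181 to 287 CPM in the unstimulated libraries.

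The index in the sample titles was S521 in all stimulated libraries and S520 in all unstimulated ones except Ctrl library 73. In LTβRΔN neutrophils index and stimulation therefore cannot be told apart. Within index S521, library 73 held 219 CPM of Ctsz against 766 to 968 in stimulated Ctrl libraries, 651 against 853 to 1066 CPM of Arg2 and 5649 against 6640 to 7613 CPM of Srgn, so it lay below the stimulated range in these 3 genes. Its 3350 CPM of Ctsd lay inside the stimulated range of 2293 to 3368 CPM. With the index as a covariate Ctsz passed in Ctrl (log2 1.99, edgeR adjusted p = 4.5e-04) and Arg2 did not (log2 0.55, adjusted p = 0.309). The index term of that fit rests on library 73 alone, and in LTβRΔN neutrophils it would be carried over from this Ctrl library, so it gives no test of their changes.

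The promoter of Ctsz is printed because this gene had the largest change of those that passed. Promoter sequences are those of RefSeq on GRCm38.p6, 250 bases before the start of the gene, and only the stretch outside the exons that GENCODE gives for the gene is printed, 5′ to 3′. Both strands were searched for a kappaB type motif (GGG, any 2 bases, then TTTCC), a STAT type motif (TTCNNNGAA) and a C/EBP type motif (TTNCNNAA), letters bound by factors that act downstream of TNF, of IL-6 and GM-CSF, and in granulocyte maturation. The Ctsz window (chr2:174439040-174439289, minus strand) held none of these, which says only that the letters are not in this window.
Ctsz: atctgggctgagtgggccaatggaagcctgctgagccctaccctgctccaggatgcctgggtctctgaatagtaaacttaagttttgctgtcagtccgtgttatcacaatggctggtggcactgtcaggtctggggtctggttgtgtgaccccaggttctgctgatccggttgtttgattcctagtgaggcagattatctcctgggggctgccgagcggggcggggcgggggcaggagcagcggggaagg

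Of the 35 counted genes with a promoter in the RefSeq table, 20 held the C/EBP type motif (57.1%, against 36.9% of 27025 promoters). The kappaB type was in 2, Olfm4 and Pglyrp1 (5.71%, against 1.4%), and the STAT type in 1, Ctsg (2.86%, against 7.18%). Ctsd and Srgn held none of the 3 motifs, and Arg2 was not among the promoters used.

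Of the 11 tested specific granule and secreted genes 0 passed in either genotype with edgeR, while at an unadjusted p under 0.05 there were 2 in Ctrl (Camp and Hp) and 1 in LTβRΔN neutrophils (Hp). Lyz2, the highest of them in CPM, held 4900, 5940 and 6451 CPM in unstimulated and 4224, 5796, 5487 and 6141 CPM in stimulated Ctrl libraries, and LTβRΔN libraries held 6049, 6042, 4300 and 5006 CPM without and 5433, 5023, 3827, 4747 and 3934 CPM with stimulation. The Lyz2 groups overlapped throughout. Over the 16 libraries Lcn2 (lipocalin 2, which binds bacterial siderophores) ranged from 1603 to 2507 CPM, Pglyrp1 (a peptidoglycan recognition protein) from 496 to 661 CPM and Cd177, a neutrophil surface protein, from 87.7 to 241 CPM. Olfm4 (olfactomedin 4, made by a subset of neutrophils) ranged from 0.135 to 22.7 CPM and Orm1 from 0 to 4.7 CPM. Hp (haptoglobin) held 3144, 2988 and 3075 CPM in unstimulated and 3436, 3566, 4259 and 4042 CPM in stimulated Ctrl libraries, without overlap. Its log2 fold change was 0.32 in Ctrl and 0.21 in LTβRΔN neutrophils (edgeR adjusted p = 0.139 and 0.332), and DESeq2 called the Ctrl change (adjusted p = 0.0254).

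Groups without overlap were found in Ctrl neutrophils for 5 listed genes that were higher with stimulation (Ctsz, Arg2, Srgn, Hp and Adam8), against 6.58% of all genes, and for 1 that was lower (Lamp2), against 6.09%. In LTβRΔN neutrophils there were 3 higher (Ctsz, Arg2 and Srgn), against 4.61%, and 1 lower (Ctsd), against 2.67%. At an unadjusted p under 0.05, 6 listed genes were higher and 3 lower in Ctrl, against 6.71% and 4.68% of all genes, and 4 were higher and 5 lower in LTβRΔN neutrophils, against 7.67% and 5.34%.

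Camp (cathelicidin, chr9:109847379-109849617, minus strand), Ltf (lactoferrin, chr9:111019271-111042767, plus strand) and Ngp (neutrophilic granule protein, chr9:110419747-110423012, plus strand), transcripts of specific granules in immature cells, differed widely between libraries of a group. Camp held 19.5, 19.6 and 46.6 CPM in unstimulated and 33.5, 9.25, 196 and 70.7 CPM in stimulated Ctrl libraries. In the same libraries Ltf held 24.4, 28.6 and 64.4 and then 33.1, 25.1, 187 and 88.5 CPM, and Ngp 60.8, 65.5 and 118 and then 71.6, 42.2, 369 and 154 CPM. The 3 genes were highest in library 82 and second highest in library 83, and among unstimulated Ctrl libraries highest in library 73. Libraries 73 and 83 share a number in their column names, which is described below. No unstimulated library carries the number of library 82. Chi3l3, a chitinase-like protein, held 46.9 CPM in library 82 and 23.4 CPM in library 83 against 0 to 5.6 CPM in the other 14. With stimulation in Ctrl, Camp had a log2 fold change of 1.45 (SE 0.67, edgeR adjusted p = 0.399), which was -0.40 without libraries 82 and 83.

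In LTβRΔN neutrophils Camp ranged from 7.88 to 43.2 CPM without and from 16.2 to 40.4 CPM with stimulation, Ltf from 8.8 to 48.8 and from 6.18 to 31.7 CPM, and Ngp from 19.99 to 106.5 and from 39.4 to 63.2 CPM. Camp and Ngp were highest of their group in libraries 70 and 78, which share a number, and Ltf in library 70 but not in library 78. Between stimulated LTβRΔN and stimulated Ctrl libraries the log2 difference was -2.41 for Ltf (SE 0.56), -1.58 for Camp (SE 0.58) and -1.56 for Ngp (SE 0.45). None of the 3 passed (edgeR adjusted p = 0.336, 0.636 and 0.636), and the groups overlapped in each. Without libraries 82 and 83 the differences were -0.89, 0.27 and -0.07, and without library 82 alone -1.64, -0.55 and -0.72. These 3 genes are themselves markers of immature neutrophils, as is Chi3l3, which held 46.93 CPM in library 82 and 23.45 CPM in library 83. Leaving out Chi3l3, the other 5 markers measured summed to 11.6 CPM in library 82 and 3.62 CPM in library 83, all of it Prtn3. In the other 14 libraries they summed to 0 to 7.01 CPM. Of these 5, Mpo, Elane and Ctsg were at 0 throughout. Markers of proliferating or early precursors summed to 27.6 and 24.95 CPM in these libraries, inside the range of the others (10.1 to 36.4 CPM), with Cdk1 and Cd34 at 0 in all. Within that list Kit, a receptor of early precursors, was highest of the 16 in library 82 (6.63 CPM) and second highest in library 83 (4.49 CPM), against 0 to 4.42 CPM in the others. Gfi1, a repressor needed in granulocyte precursors, held 4.06 and 2.5 CPM there against 0 to 4.93 CPM. Platelet markers were high in library 82 and not in library 83 (206 and 6.36 CPM), and the part of other cells in these levels was not tested.

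**Figure D3:**
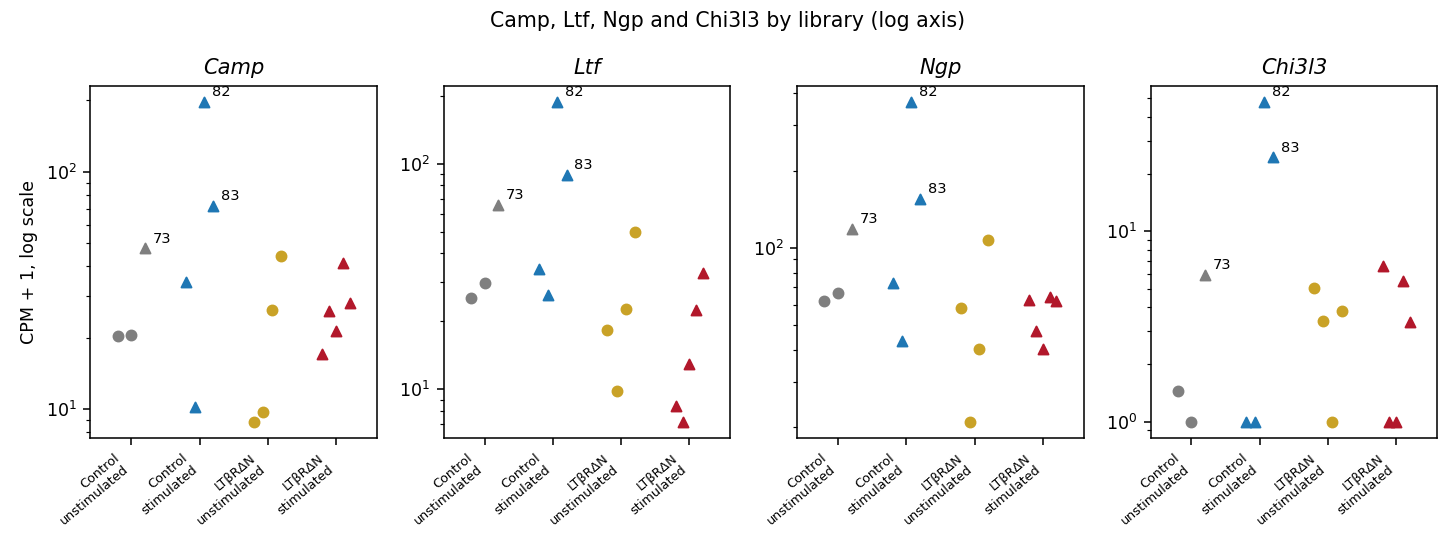
CPM + 1 of Camp, Ltf, Ngp and Chi3l3 in each library on a log axis, by group. Circles are libraries of index S520 and triangles those of S521, and libraries 73, 82 and 83 are labelled. Libraries 82 and 83 are the highest of the 16 for each gene.

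The promoters of Ltf (chr9:111019042-111019270, plus strand), Ngp (chr9:110419558-110419746, plus strand) and Chil3 (chr3:106167565-106167814, minus strand) are printed because these genes were high in the same libraries and each window holds the C/EBP type motif. Capitals mark the motif, and in Chil3 also the STAT type match TTCTTAGAA. The promoter of Camp, which was high in the same libraries, held none of the 3 motifs.
Ltf: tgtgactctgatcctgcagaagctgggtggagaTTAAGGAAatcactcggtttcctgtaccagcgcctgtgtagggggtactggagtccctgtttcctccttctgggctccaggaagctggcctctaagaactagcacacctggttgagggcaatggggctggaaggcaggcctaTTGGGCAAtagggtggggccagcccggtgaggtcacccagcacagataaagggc
Ngp: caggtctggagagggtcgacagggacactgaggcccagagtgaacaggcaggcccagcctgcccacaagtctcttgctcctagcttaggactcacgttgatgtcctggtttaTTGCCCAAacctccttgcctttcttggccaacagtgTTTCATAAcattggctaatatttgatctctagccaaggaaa
Chil3: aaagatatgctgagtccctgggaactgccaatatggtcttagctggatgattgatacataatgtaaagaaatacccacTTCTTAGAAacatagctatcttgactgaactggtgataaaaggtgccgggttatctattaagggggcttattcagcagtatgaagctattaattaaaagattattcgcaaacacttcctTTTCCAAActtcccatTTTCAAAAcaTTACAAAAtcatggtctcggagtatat

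Of the metalloproteases, which cut extracellular matrix and surface proteins, 0 of 4 passed in either genotype with edgeR, while 2 (Mmp8 and Adam8) in Ctrl and 0 in LTβRΔN neutrophils had an unadjusted p under 0.05. Mmp9 (gelatinase B), the highest in CPM, held 3139, 2255 and 1950 CPM in unstimulated and 2921, 2248, 3125 and 2128 CPM in stimulated Ctrl libraries. LTβRΔN libraries held 2138, 3022, 2654 and 2227 CPM without and 2148, 2954, 2760, 2168 and 1867 CPM with stimulation, and the groups overlapped. Mmp8, the collagenase of specific granules, ranged from 577 to 1158 CPM over all libraries, with a log2 fold change of -0.35 in Ctrl (edgeR adjusted p = 0.415). Adam8, a membrane-bound sheddase, ranged from 581 to 1009 CPM, with one of 0.40 (adjusted p = 0.313). The membrane-anchored Mmp25 was low, from 12.7 to 54.7 CPM.

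Among the cytosolic proteins, S100a8 held 29160, 28820 and 36720 CPM in unstimulated and 27290, 23520, 31690 and 34070 CPM in stimulated Ctrl libraries. LTβRΔN libraries, whose transgene is driven by an S100A8 promoter, held 41840, 18780, 31450 and 38700 CPM without and 38880, 20250, 25870, 35570 and 31820 CPM with stimulation. All groups overlapped, and the log2 difference between the genotypes was 0.05 without stimulation (95% interval -0.39 to 0.50) and 0.06 with it (-0.33 to 0.46). Anxa1 (annexin A1, a calcium-dependent membrane binder) ranged from 1132 to 1656 CPM and had a log2 fold change of -0.25 in LTβRΔN neutrophils that did not pass (edgeR adjusted p = 0.292). Padi4, the deiminase that modifies histones in neutrophil extracellular traps, ranged from 191 to 376 CPM and passed in no comparison.

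The names of the columns carry a further number of unstated meaning, which an unstimulated and a stimulated library can share, and several short transcripts followed it in both genotypes. S100a8 was lowest of its group in LTβRΔN libraries 68 and 76, which share a number (18780 and 20250 CPM), and highest in libraries 67 and 75, which share another (41840 and 38880 CPM). In Ctrl, S100a8, S100a9, S100a11 and Retnlg were lowest of their group in both libraries 72 and 81, which share a number. They were highest in both libraries 73 and 83, which share another. S100a8 held 28820 and 23520 CPM in libraries 72 and 81 and 36720 and 34070 CPM in libraries 73 and 83. Stfa1, a stefin that inhibits cysteine proteases, held 5.6 and 6.93 CPM in libraries 68 and 76, 31.1 and 32.4 CPM in 67 and 75, 17.2 and 17.6 CPM in 69 and 77 and 30.4 and 30.1 CPM in 70 and 78. Each of these LTβRΔN pairs shares a number, and levels within a pair were close while those of different pairs were up to several-fold apart. In Ctrl the pairs that share a number held 15.8 and 11.2 CPM (71 and 80), 14.8 and 15.4 CPM (72 and 81) and 20.1 and 16.1 CPM (73 and 83), so that differences within pairs were about as large as those between pairs. Stfa2l1, a related stefin, held 89.6 and 93.4 CPM in libraries 68 and 76 against 238 and 239 CPM in 67 and 75, and Retnlg held 2482 and 3142 against 4918 and 5160 CPM.

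Of the 37 genes, 12 were the lowest of their group in both libraries 68 and 76, among them S100a8, S100a9, S100a11, Retnlg, Lcn2 and Slpi (32.4%, against 7.53% of all tested genes). The highest of their group in both were 7 (Cd177, Mmp8, Mmp9, Adam8, Padi4, Ctsb and Lamp1), 18.9% against 8.01%. In libraries 67 and 75, 10 were the highest in both (27.0%, against 5.49%) and 3 the lowest (8.11%, against 3.79%). The other 5 pairs had 2 to 5 genes lowest and 0 to 5 highest in both. In libraries 71 and 80 these shares lay below those of all genes, with 4 lowest (10.8%, against 14.3%) and 0 highest (against 9.95%). They also did in libraries 69 and 77, with 2 lowest (5.41%, against 8.42%) and 1 highest (2.7%, against 5.06%). For the remaining pairs the shares lay on both sides of those of all genes. Libraries 72 and 81 had 13.51% lowest (against 6.599%) and 5.41% highest (against 8.217%). Libraries 70 and 78 had 5.41% lowest (against 9.085%) and 13.51% highest (against 5.536%). Libraries 73 and 83 had 5.41% lowest (against 8.727%) and 13.51% highest (against 10.52%). Group means of Stfa1 were 16.9 ± 2.78 (SD, n = 3) and 16.1 ± 4.26 CPM (n = 4) in Ctrl and 21.1 ± 12.1 (n = 4) and 19.1 ± 11.8 CPM (n = 5) in LTβRΔN neutrophils, without and with stimulation. Stfa1, Stfa2 (0 to 6.64 CPM), Stfa2l1 and BC100530 (3.2 to 16.6 CPM) lie within one stretch of chromosome 16 and are closely related, so how reads were divided among them is uncertain.

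**Figure D4:**
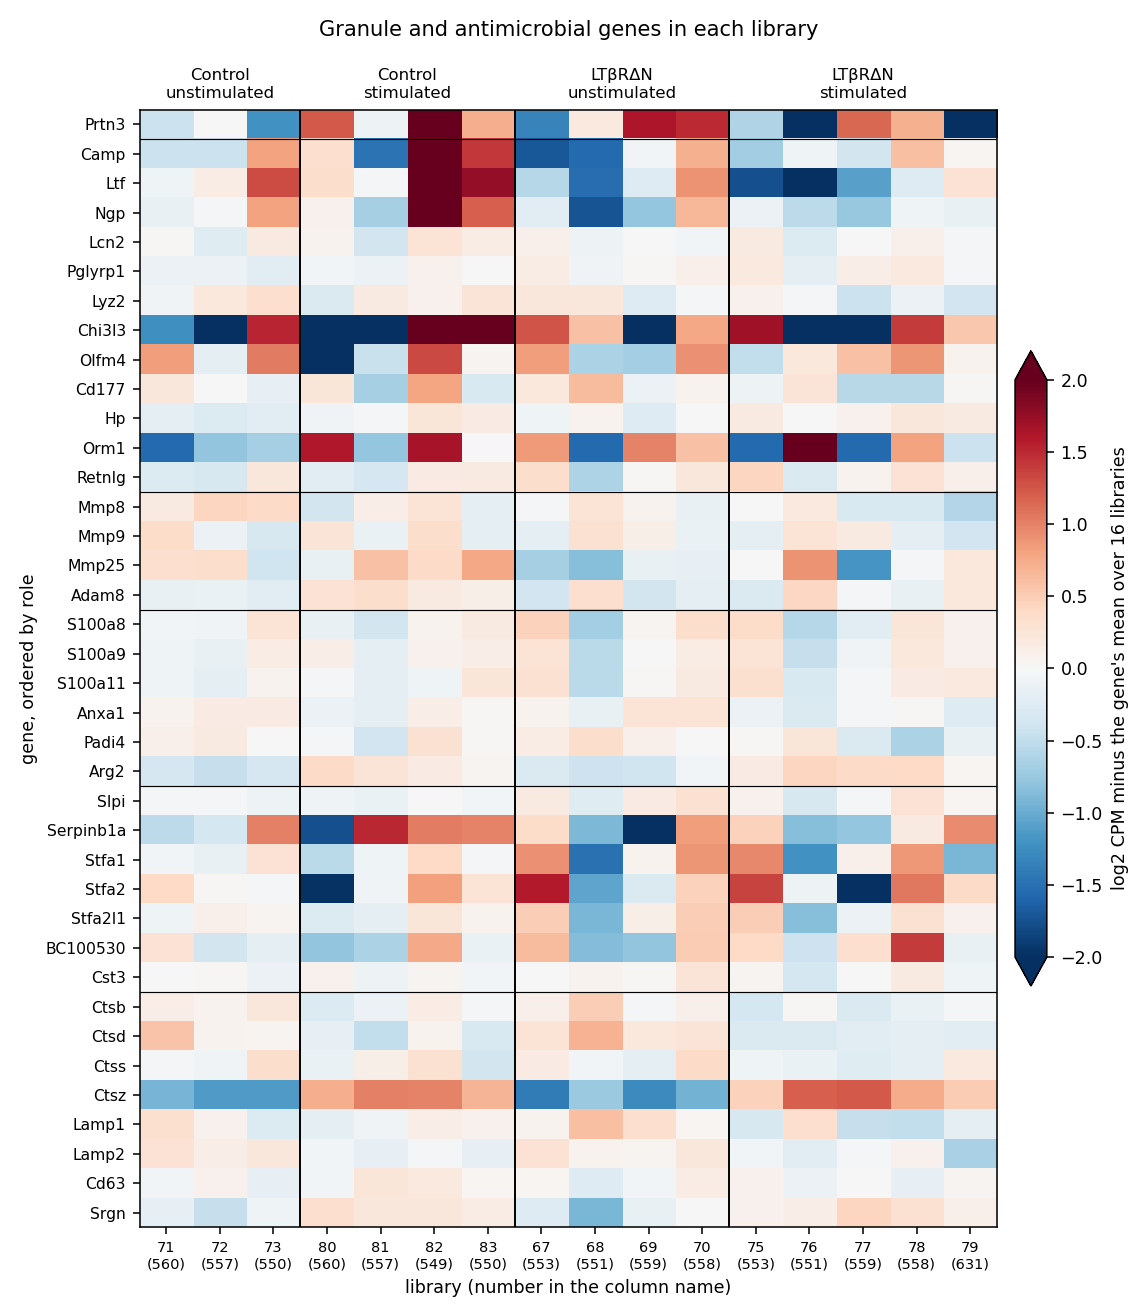
Log2 CPM of the 37 tested genes and Chi3l3 in each library minus the mean of the gene over the 16 libraries, as colour capped at 2 either way, with libraries ordered by group. Ctsz changes with stimulation in both genotypes, Camp, Ltf, Ngp and Chi3l3 are high in libraries 82 and 83, and S100 and stefin genes are low in libraries 68 and 76.

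In libraries 68 and 76 most short genes of the list lay low, and in libraries 67, 70, 75 and 78 most lay high. Across the 37 genes, Spearman's rho between exon length and the log2 difference from the other libraries of the group was 0.57 in library 68 and 0.47 in library 76, beside 0.10 and 0.10 across 9082 genes. It was about as large with the opposite sign in libraries 78 (-0.55), 67 (-0.51), 75 (-0.46) and 70 (-0.44), beside -0.07 to 0.02 across all genes, and lay between -0.31 and 0.32 in the other 10. These are descriptions across genes, which are not independent replicates. The listed genes under 1 kb are S100a8, S100a9, S100a11, Stfa1, Stfa2, Stfa2l1, BC100530, Retnlg, Camp and Orm1, so S100 genes and related stefins make up most of them. Length and gene family were not separated. The exceptions to the pattern were Orm1 (3.08) and Camp (0.03) in library 76, Camp (-1.40) in library 67, and Camp (-0.74) and Orm1 (-1.86) in library 75. In libraries 68 and 76 the 10 listed genes under 1 kb had a median difference of -1.09 and -0.55 on the log2 scale, and all tested genes under 1 kb one of -0.50 and -0.36. For the 17 listed genes over 2 kb it was -0.12 and -0.04. In libraries 67, 70, 75 and 78 the median difference of the 10 short listed genes was 0.58, 0.45, 0.36 and 0.64. That of all tested genes under 1 kb was 0.17, 0.29, 0.07 and 0.20. Library 68 was the shallowest and library 76 held 8575222 counts, and the part of RNA quality in these levels was not tested. With a trend over gene length removed, the LTβRΔN change of Ctsd was -0.49 and did not pass (edgeR adjusted p = 0.0832).

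**Figure D5:**
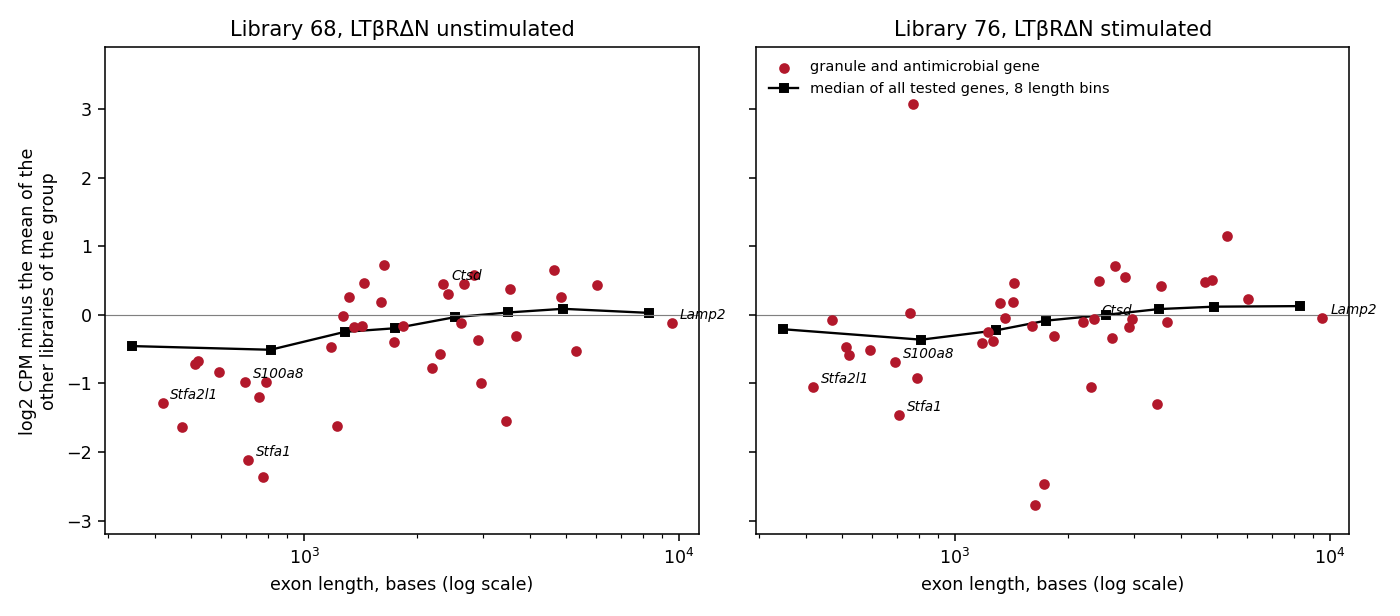
Log2 CPM in library 68 (left) and library 76 (right) minus the mean of the other libraries of the group, against exon length on a log axis, for the listed genes (red points) and as the median of all tested genes in 8 bins of length (black squares). S100a8, Stfa1 and Stfa2l1 lie below the median of genes of their length in both libraries.

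None of the 7 tested protease inhibitors passed with edgeR in either genotype, and 0 had an unadjusted p under 0.05. Slpi, the highest of them, held 4243, 4282 and 4026 CPM in unstimulated and 4087, 3950, 4330 and 4169 CPM in stimulated Ctrl libraries. LTβRΔN libraries held 4917, 3653, 4861 and 5349 CPM without and 4606, 3490, 4238, 5329 and 4439 CPM with stimulation, so the Ctrl libraries lay inside the range of the LTβRΔN libraries. Cst3 (cystatin C) ranged from 761 to 1169 CPM. Serpinb1a was low, from 1.13 to 18.5 CPM, and has paralogs that may share its reads.

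Among the other lysosomal genes, Lamp1 and Lamp2, the main membrane glycoproteins of lysosomes, and Ctsb (cathepsin B) had log2 fold changes of -0.46, -0.32 and -0.32 with stimulation in LTβRΔN neutrophils, none of which passed (edgeR adjusted p = 0.19, 0.235 and 0.211). Without library 76 that of Lamp1 was -0.64 and passed (adjusted p = 0.0179). In Ctrl the log2 fold change of Lamp2 was -0.32 (edgeR adjusted p = 0.381). Ctss (cathepsin S) ranged from 60.6 to 103 CPM and Cd63, a tetraspanin of azurophil granules, from 174 to 245 CPM, and neither passed. Scaling by library totals alone moved the median of all genes to -0.27 in Ctrl and -0.21 in LTβRΔN neutrophils. In that fit 1 listed gene was called higher and 4 lower in Ctrl (Anxa1, Ctsd, Lamp2 and Mmp8), and 2 higher and 5 lower in LTβRΔN neutrophils (Anxa1, Ctsb, Ctsd, Lamp1 and Lamp2). The median of all genes moved down too, and the share of all genes called is not given here. These counts are therefore not read as a result about the listed genes.

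Wider lists of related genes were read from the same fit. Of 25 tested lysosomal genes outside the list, Ctsl, the cysteine protease cathepsin L, rose in both genotypes. It lay at 63.1 to 82.5 CPM in unstimulated and 158 to 201 CPM in stimulated Ctrl libraries (log2 1.36, SE 0.20, edgeR adjusted p = 6.8e-05), and the log2 fold change in LTβRΔN neutrophils was 1.25 (SE 0.18, adjusted p = 4.1e-05). Asah1, the acid ceramidase, had a log2 fold change of -0.55 in LTβRΔN neutrophils that passed (edgeR adjusted p = 0.0373). Of 13 other granule genes, Fpr2, a formyl peptide receptor, rose by 0.98 in both genotypes (edgeR adjusted p = 0.00311 in Ctrl and 8.5e-04 in LTβRΔN neutrophils). Of 14 relatives of the inhibitors, S100 proteins and annexins, Serpinb2, an inhibitor of plasminogen activators, rose in both, from 0 in 6 of the 7 unstimulated libraries to 10.6 to 36.2 CPM in the stimulated ones. Of 14 genes of the exocytosis machinery 0 passed with edgeR in either genotype. At an unadjusted p under 0.05 there were 0 in Ctrl and 2 in LTβRΔN neutrophils, all lower, where 5.34% of all genes were lower.

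LTβRΔN were compared with Ctrl libraries to ask whether granule genes differ when neutrophils lack LTβR. None of the 37 genes passed with edgeR without or with stimulation, where 0.0217% of all genes passed in each comparison, and DESeq2 also called 0. At an unadjusted p under 0.05 there were 0 without stimulation, against 2.80% of all genes, and 3 with it, against 6.41%, all lower (3.33% of all genes were lower), namely Ltf, Camp and Ngp. The median log2 difference of the 37 genes was 0.04 without and -0.06 with stimulation, beside -0.01 and -0.01 over all genes. The 95% interval of the difference lay inside 2-fold for 26 genes without and 27 genes with stimulation, among them Ctsz (-0.39 to 0.37 and -0.33 to 0.34), Lcn2 (-0.29 to 0.29 and -0.31 to 0.20) and Mmp9 (-0.34 to 0.41 and -0.46 to 0.20). It reached beyond 2-fold in both for Prtn3, Camp, Ltf, Ngp, Olfm4, Orm1, Serpinb1a, Stfa1, Stfa2 and BC100530. Without stimulation Pglyrp1 was the only listed gene whose groups did not overlap (550.3 to 639.7 CPM in LTβRΔN against 496 to 532 CPM in Ctrl), against 5.71% of all genes (2.54% higher), and its log2 difference of 0.20 did not pass (edgeR adjusted p = 1). With stimulation 0 had groups without overlap, against 1.31% of all genes.

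The change with stimulation was also compared between the genotypes in the same model. By edgeR 0 of the 37 genes differed (0% of all genes did), DESeq2 called 0 of them, and 1 had an unadjusted p under 0.05 (3.71% of all genes, 1.98% lower). That gene was Ltf, with a log2 difference of -1.78 (SE 0.83, edgeR adjusted p = 0.9999), which was -0.24 without libraries 82 and 83. The median over the 37 genes was -0.11, beside -0.01 over all genes, and the 95% interval lay inside 2-fold for 25 genes.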

How the data were processed

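The authors deposited 1 table of raw counts, whole reads summed by gene symbol and not normalized, for 16 single-end libraries. The submitters' processing notes name Bowtie 1.0.0, TopHat 1.4.1, HTSeq 0.7.1 and mm10, and the annotation and strand setting are not given in the sources used here. Genes were filtered with filterByExpr (minimum count 10, minimum total 15) and fitted with edgeR 4.0.16 (R 4.3.3), TMM factors, 1 coefficient per group over all libraries and the quasi-likelihood test, with Benjamini-Hochberg adjustment over the 9213 genes tested and a threshold of 0.05. Levels are CPM with TMM factors, and log2 CPM uses a prior count of 2. Library totals of 1094335 to 11932653 counts set the precision. A level of 0 allows 3 counts, a limit that covers counting error only. Exon lengths and places came from GENCODE M21 on GRCm38, which matched 97.6% of symbols. The fit was tested on simulated data. Pairs of libraries of a group differed by more than sampling noise (chi-square per degree of freedom 6.82 or more).

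Each listed gene is named. Values in all libraries are given for genes that passed and, in classes where none did, for the gene with the highest level. Of the wider lists, genes that passed are named. Values by library of Camp, Ltf, Ngp, Hp, S100a8, Retnlg, Stfa1 and Stfa2l1 in Ctrl or in library pairs were chosen after they were seen. The members, lists and motifs were chosen with earlier results of these data known. Alternatives were other scalings, filters, thresholds, groups in the fit, DESeq2 1.42.0, an index covariate, a block, and leaving out libraries. Leaving out libraries 68 and 76, 82 and 83, or 73, 82 and 83, and removing a trend over gene length, were chosen after seeing the data.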

Additional observations from a re-analysis of the deposited data

Results flagged for a closer look

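In 111 sets of values of 1 gene in 1 group of 4 or 5 libraries, 4 held a library whose gap to the others exceeded Dixon's 95% critical value, where chance gives about 5.55. Ctsd was at 5234 CPM in unstimulated LTβRΔN library 68 against 3721 to 3882 CPM in the rest of its group. S100a9 was at 14360 CPM in stimulated Ctrl library 81 against 17180 to 17760 CPM. Serpinb1a was at 1.621 CPM in stimulated Ctrl library 80 against 12.85 to 18.49 CPM. Orm1 was at 0 in unstimulated LTβRΔN library 68, where a count of 0 allows up to 2.74 CPM, against 1.106 to 1.583 CPM. The causes were not tested.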

How the results depend on the processing

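Ctsz kept its call in all 24 alternatives run in Ctrl and all 26 in LTβRΔN neutrophils, with log2 fold changes of 1.68 to 2.04 and 1.75 to 2.12. These totals include the index covariate fit, which gives no test of LTβRΔN neutrophils, and fits that left out only libraries of the other genotype. Arg2 lost its call in 3 alternatives in Ctrl and 1 in LTβRΔN neutrophils, and in LTβRΔN neutrophils Srgn lost it in 12 and Ctsd in 3. In Ctrl, where Srgn and Ctsd did not pass in the main fit, Ctsd gained a call in 6 of the 24 alternatives and Srgn in 4. The number of listed genes called with stimulation, 2 in Ctrl and 4 in LTβRΔN neutrophils, became 5 and 7 with library totals only and 1 and 1 with the index as a covariate, a term that rests on Ctrl library 73 alone and gives no test of LTβRΔN neutrophils. It was 2 in LTβRΔN neutrophils without the 3 shallowest libraries, and 4 in Ctrl without libraries 68 and 76. Leaving out single libraries gave 1 to 3 in Ctrl and 3 to 5 in LTβRΔN neutrophils. For the genotype comparisons and the difference in change it was 0 under each alternative run. The share of all genes called under each alternative is not given here, so these counts describe the fits and not the list. The log2 fold change of Camp with stimulation in Ctrl turned to -0.40 without libraries 82 and 83, and its difference between genotypes with stimulation to 0.27 without these and to 0.27 without library 73 as well. The cause of these turns in Camp was not tested. Lamp1 in LTβRΔN neutrophils turned to 0.018 with the index as a covariate, whose term comes from Ctrl library 73. That library held 180.7 CPM of Lamp1, against 272.6 and 231.1 CPM in unstimulated Ctrl libraries 71 and 72. The Lamp1 value of this fit therefore gives no test of LTβRΔN neutrophils.

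With a replicate block for the shared number, 6 listed genes were called in Ctrl and 4 in LTβRΔN neutrophils. The share of all genes called in that fit is not given here, so these counts are not read as a result about the list. Over all tested genes, the deviations of libraries that share a number from their group means had an r of 0.021 to 0.069 (7 pairs). This r covers low genes as well, so its small size does not show that pairing is weak. Among libraries of the same genotype and the other treatment, 13 of 14 correlated best with their own number, a hint from the data only. The block could not be fitted for the genotype comparisons. Depth limits low genes, since a count of 0 in library 68 allows up to 2.74 CPM.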
